A study of Mus musculus with 3 samples.

Results

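Genes of 8 families that write, erase or read histone marks or slide nucleosomes were examined for peaks of Smad3 and JMJD3 in mouse neural stem cells. They were chosen by symbol from the genes that either peak list names as closest to a peak: Kdm1 to Kdm5 (histone lysine demethylases), Hdac (zinc-dependent deacetylases), Sirt (NAD-dependent deacylases), Smarc (SWI/SNF and related remodelers), Chd (chromodomain remodelers), Setd with Setdb (SET domain proteins, many of them lysine methyltransferases), Kat (lysine acetyltransferases) and Mll (proteins of the trithorax type). A family number or letter had to follow the stem. This gave 70 genes of 16428 named in all. A further 11 symbols share a stem without belonging to a family, such as Chdh, Katna1 and Mllt1, and were left out. Setd1b, Smarca1 and Kdm5d were named by no peak. The Kdm6 genes, which include the gene for JMJD3 itself, lie outside the rule.

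Smad3 is the transcription factor that carries signals of activated TGFb receptors to DNA, together with Smad4 and with partner factors that help to place it. JMJD3, the product of Kdm6b, removes methyl groups from lysine 27 of histone H3, a mark laid down by Polycomb complexes. Most of the proteins described here act on histones or on nucleosome position, some act mainly on other proteins, and in neural progenitors several of them are known to exchange subunits or partners as the cells leave the cycle and differentiate.

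The cells were wild-type neural stem cells of the embryonic mouse cerebral cortex, taken at E12.5 and kept as attached cultures with EGF at 20 ng/ml and FGF at 10 ng/ml. All of them received TGFb at 5 ng/ml, and the design text gives 30 minutes of it for both immunoprecipitations. Endogenous Smad3 and endogenous JMJD3 were each precipitated once, and an input library without antibody has no list used here. How many embryos or cultures stand behind a library is not given in the sources used here. Without a second library or untreated cells, no value below has a replicate error and none describes an effect of TGFb. Intervals are exact Clopper-Pearson 95% intervals and cover counting error only.

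The Smad3 list held 98086 peaks and the JMJD3 list 63154, each with a position on mm9, the closest RefSeq transcription start and the distance from it to the peak's midpoint. Read numbers and scores are not in the lists, so the depth is unknown. All 7 neural stem cell markers looked up (Sox2, Nes, Pax6, Vim, Fabp7, Hes1 and Slc1a3) had promoter peaks of both proteins. Over all named genes 73.1% had a promoter peak of Smad3, 57.1% of JMJD3 and 55.1% of both. The JMJD3 peak of Pax6, at -949 bp, was near the 1 kb limit given below. None of the 3 microglial markers named in the lists had a promoter peak, and 1 of 4 mesenchymal markers had one, of Smad3. Of 4 neuronal markers, 2 had a Smad3 and 1 a JMJD3 promoter peak. Of the 2 oligodendrocyte lineage markers named in the lists, Olig2 had both and Mbp neither. Peaks do not measure expression, so these counts name no cell type.

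A gene counted as having a promoter peak when the midpoint of a peak that names it lay within 1 kb of the start. Smad3 had promoter peaks at 66 of the 70 genes (94.3%, interval 86.0 to 98.4), against 73.1% of all named genes. JMJD3 had them at 57 of 70 (81.4%, interval 70.3 to 89.7), against 57.1%. Every one of those 57 genes also had a Smad3 promoter peak, so both proteins were listed at 57, against 55.1% of all named genes. Smad3 alone was listed at 9 genes (12.9%), against 17.9%, and JMJD3 alone at 0, against 1.95%. The remaining 4 genes (5.71%) had a promoter peak of neither, against 25.0% of named genes. A gene enters the lists through having a peak at all, and over 20953 coding genes of the RefSeq table the shares were lower, at 55.0% for Smad3, 43.3% for JMJD3 and 41.9% for both. The family shares leave out members that no peak names, such as Setd1b and Smarca1, so they are not directly comparable to these.

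**Figure D1:**
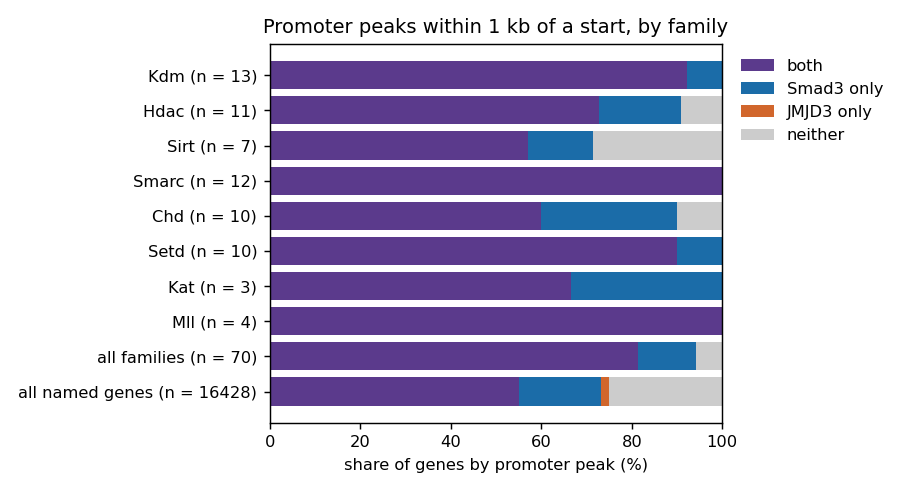
Share of genes (%) with a promoter peak of both proteins, of Smad3 only, of JMJD3 only or of neither, for each family, all 70 family genes and all 16428 named genes, with the number of genes beside each bar. The Smarc and Mll bars are filled by genes with both proteins, and the JMJD3-only class is empty in every family.

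By family, all 12 Smarc genes and all 4 Mll genes had promoter peaks of both proteins, as did 12 of 13 Kdm and 9 of 10 Setd genes. In the Hdac family 8 of 11 had both, in the Chd family 6 of 10, in the Sirt family 4 of 7 and in the Kat family 2 of 3. The shares of Chd (60.0%) and Sirt (57.1%) lie near the 55.1% of all named genes. The interval of the JMJD3 share was 73.5 to 100% for Smarc and 26.2 to 87.8% for Chd, and these overlap, so families of this size are told apart only coarsely. In the distance to the start, few genes were near the 1 kb limit. The Smad3 calls closest to it were Setd3 inside, at 713 bp, and Sirt2 outside, at 2487 bp. For JMJD3 they were Chd7 inside, at 665 bp, and Chd3 outside, at 1327 bp.

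Sequence upstream of the start is shown for 6 genes that stand for the 3 patterns, as the 250 bases before the start on the gene's strand, from RefSeq on GRCm38.p6. That build is later than the mm9 of the peaks, so an entry was used only where a gene had 1 start in the lists and the same span in both within 100 bp. Capitals mark CAGAC or its complement GTCTG, the core of the Smad-binding element, and GGCGC or its complement GCGCC, a GC-rich motif that Smad3 and Smad4 also bind. Smarca4 (chr9:21615919-21616168, plus strand), Chd9 (chr8:90828585-90828834, plus strand) and Smarca5 (chr8:80739460-80739709, minus strand) had promoter peaks of both proteins. Kat2a (chr11:100712468-100712717, minus strand) and Hdac8 (chrX:102505159-102505408, minus strand) had Smad3 only. Sirt2 (chr7:28766502-28766751, plus strand) had neither under its own name.
Smarca4: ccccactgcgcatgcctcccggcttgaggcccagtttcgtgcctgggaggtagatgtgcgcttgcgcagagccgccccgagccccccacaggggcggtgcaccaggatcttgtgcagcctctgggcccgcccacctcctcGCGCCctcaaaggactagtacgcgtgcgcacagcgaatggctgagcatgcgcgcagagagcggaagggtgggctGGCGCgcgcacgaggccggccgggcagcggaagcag
Chd9: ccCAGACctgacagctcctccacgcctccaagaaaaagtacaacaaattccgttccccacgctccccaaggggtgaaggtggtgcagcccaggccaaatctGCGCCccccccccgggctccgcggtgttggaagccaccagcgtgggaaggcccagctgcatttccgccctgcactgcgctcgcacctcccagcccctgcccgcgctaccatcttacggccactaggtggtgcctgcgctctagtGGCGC
Smarca5: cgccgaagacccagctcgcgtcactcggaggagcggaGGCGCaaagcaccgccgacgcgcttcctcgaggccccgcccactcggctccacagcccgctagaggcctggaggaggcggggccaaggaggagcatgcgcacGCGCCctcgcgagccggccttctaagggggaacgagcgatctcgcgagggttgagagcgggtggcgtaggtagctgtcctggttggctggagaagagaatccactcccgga
Kat2a: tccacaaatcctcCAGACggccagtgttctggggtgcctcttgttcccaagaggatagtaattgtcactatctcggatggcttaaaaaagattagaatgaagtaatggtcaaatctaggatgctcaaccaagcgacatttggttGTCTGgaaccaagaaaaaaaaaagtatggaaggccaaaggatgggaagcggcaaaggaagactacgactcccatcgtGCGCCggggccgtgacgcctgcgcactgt
Hdac8: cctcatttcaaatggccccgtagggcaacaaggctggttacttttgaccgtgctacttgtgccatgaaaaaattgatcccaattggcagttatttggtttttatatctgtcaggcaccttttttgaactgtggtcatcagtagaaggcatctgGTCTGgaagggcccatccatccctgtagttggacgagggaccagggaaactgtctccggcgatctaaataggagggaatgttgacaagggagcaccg
Sirt2: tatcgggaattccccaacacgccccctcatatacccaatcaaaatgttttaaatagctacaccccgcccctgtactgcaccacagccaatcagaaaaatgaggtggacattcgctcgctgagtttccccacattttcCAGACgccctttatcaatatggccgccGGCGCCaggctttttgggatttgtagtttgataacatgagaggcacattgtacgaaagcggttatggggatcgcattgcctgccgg

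The same letters were counted in every window that could be matched. Read on both strands, CAGAC was present in 14 of the 36 family genes whose entry could be matched (38.9%), against 42.2% of all 32851 promoter entries. Among the 31 of them with both proteins it was present in 9 (29.0%), and in all 4 with Smad3 only. Of the windows above, those of Smarca4 and Smarca5 hold none, those of Chd9, Hdac8 and Sirt2 hold 1 each, and that of Kat2a holds 2. Among genes with both proteins, Chd6, Hdac11 and Setd4 also hold 2 each. GGCGC, which can share an end base with CAGAC, was present in 27 of 36 (75.0%), against 32.0% of all entries. The matched genes are also rich in CG: their windows held a median of 20 CG pairs, against 6 over all entries, and GGCGC itself contains such a pair. The part of CG content in the GGCGC share was not tested. The AP-1 site TGANTCA was present in 1 of 36 (2.78%), against 6.75%, and the E-box CANNTG in 20 of 36 (55.6%), against 66.2%.

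Peaks of both proteins lay over the start itself. At 50 bp upstream, 86.1% of the 79 starts of family genes were covered by a Smad3 peak and 77.2% by a JMJD3 peak. For 17686 starts of other named genes the values were 65.2% and 53.6%. At 1 kb upstream the shares had dropped to 15.2% and 16.5% in the family genes, against 9.11% and 7.01% in the other genes. Over all 70 genes, 62 had a start covered by Smad3 (88.6%) and 53 by JMJD3 (75.7%). A gene with several starts needs only 1 covered, so these shares are not comparable to those per start. The same shares over all named genes are not given here. The nearest promoter peak had its midpoint upstream of the start in 43 of 66 genes for Smad3 and 39 of 57 for JMJD3, near the 59.2% and 63.8% over all genes with such a peak, and the median position was -63.5 bp and -49 bp (negative is upstream), against -26 and -43 bp over all genes.

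**Figure D2:**
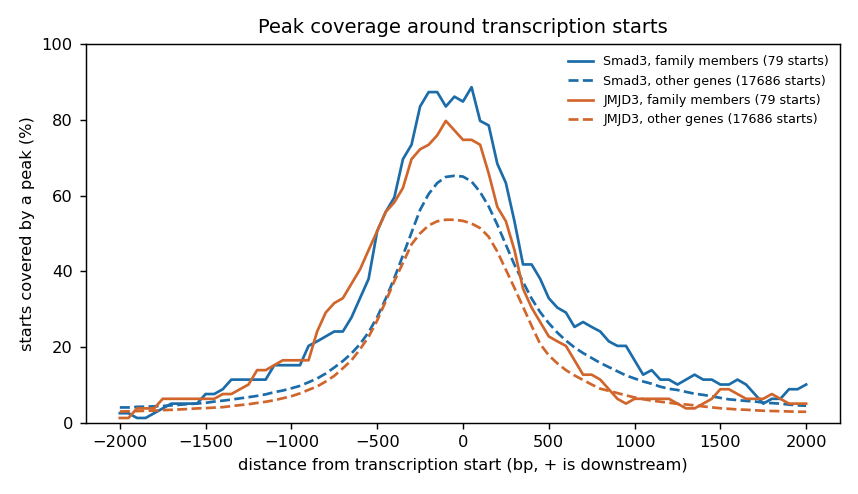
Share of transcription starts (%) covered by a peak at each distance from the start (bp, positive is downstream), for 79 starts of family genes (solid) and 17686 starts of other named genes (dashed), in blue for Smad3 and orange for JMJD3. All 4 lines peak close to the start, and the solid lines run above the dashed ones there, at 86.1% against 65.2% for Smad3 and 77.2% against 53.6% for JMJD3 at 50 bp upstream.

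With no score in the lists, the extent of binding was described by width, an imperfect stand-in for enrichment. Peaks of a list at most 10 bp apart were joined to a region, and a gene's width is that of the widest region holding a promoter peak, which may run past 1 kb. The median over family genes was 860 bp for Smad3 and 1070 bp for JMJD3, against 760 and 860 bp over all genes with such a region. JMJD3 was the wider of the pair at 35 of 57 genes (61.4%), against 58.1% over all genes with both. Smad3 was wider at 21, and in Kdm4a both were 1200 bp wide. Across the 57 genes the widths of the 2 proteins had a Spearman correlation of 0.66, against 0.60 over all genes with both, a description only, since the points share their libraries. At all 57 genes a promoter peak of each list overlapped the other list by at least 1 bp, and at 50 of them the widest regions shared bases, with a median of 790 bp over the 57. The same counts over all genes with both are not given here. Over all genes 93.4% of JMJD3 and 70.9% of Smad3 promoter peaks overlapped the other list, so such overlap is common and not particular to the family genes. Smad3 had 2 or more promoter peaks at 50 of its 66 genes, against 60.5% of all genes with one, and JMJD3 at 35 of its 57, against 47.0%.

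**Figure D3:**
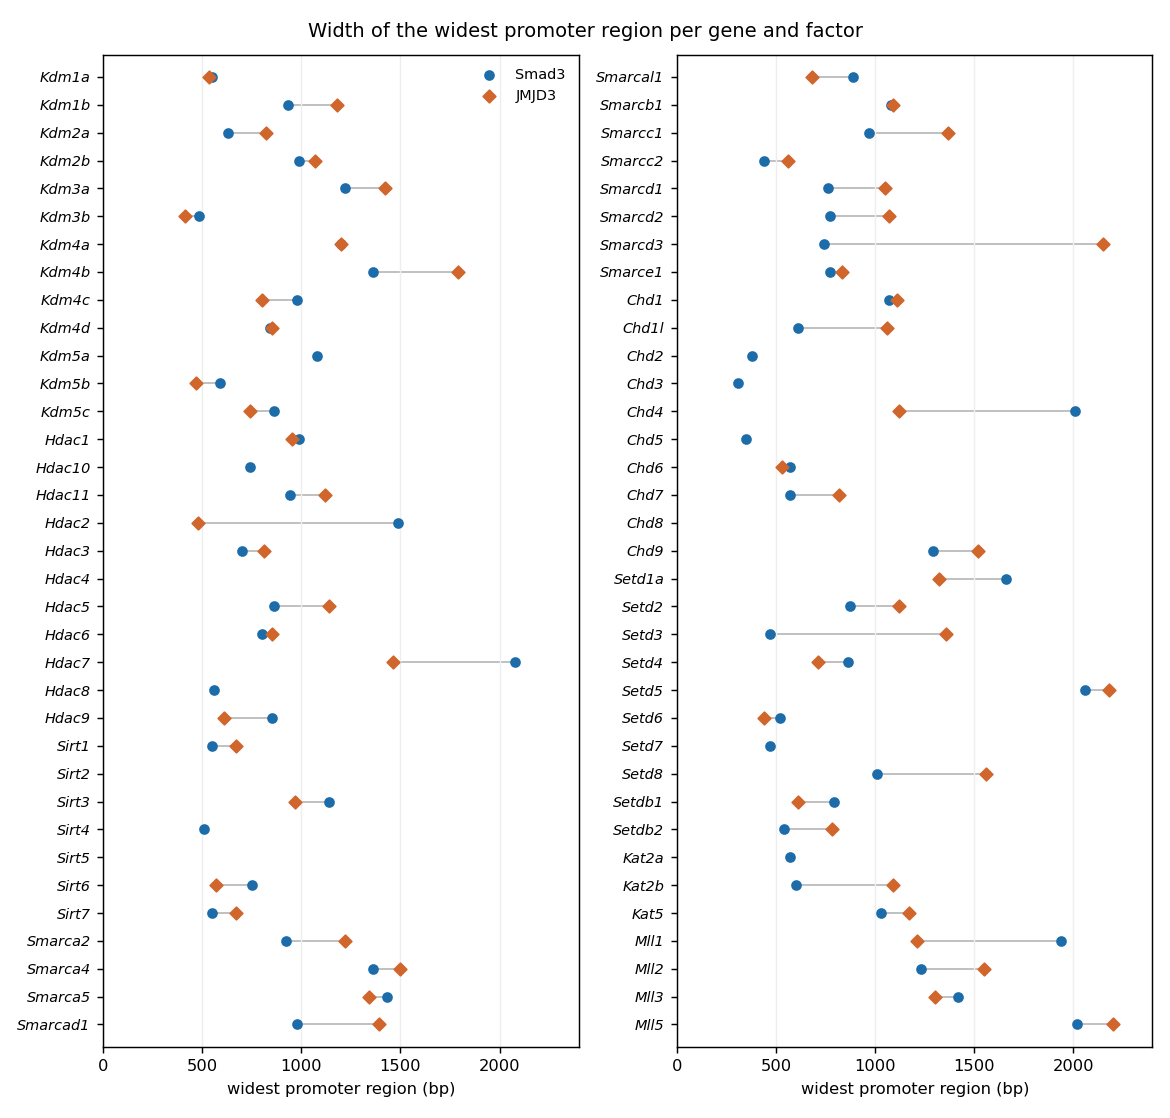
Width (bp) of the widest promoter region of Smad3 (blue circles) and JMJD3 (orange diamonds) for each of the 70 genes, ordered by family, with a line joining the pair where both are present. Rows with a circle alone are the 9 Smad3-only genes and empty rows the 4 genes with neither. Mll5, Setd5, Hdac7, Chd4 and Smarcd3 reach beyond 2000 bp, and Smarcd3 and Hdac2 have the longest joining lines.

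The lysine demethylases remove methyl groups from histone H3 and, with Kdm1 acting through an amine oxidase domain and the others through a JmjC domain, cover lysines 4, 9 and 36. Smad3 had promoter peaks at all 13 and JMJD3 at 12. The widest regions of both proteins lay at Kdm4b, an H3K9 and H3K36 demethylase, with 1361 bp for Smad3 (chr17:56464851-56466211, mm9) and 1790 bp for JMJD3 (chr17:56464601-56466390). Kdm3a, an H3K9 demethylase, followed with 1220 and 1420 bp. The narrowest were at its relative Kdm3b, with 481 and 410 bp, and these did not share bases.

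Kdm5a, an H3K4 demethylase, was the exception in this family. It had a Smad3 region of 1080 bp over its start (chr6:120313581-120314660) and 2 further Smad3 peaks inside the gene, and no JMJD3 peak of any kind named it. Its paralogs Kdm5b and Kdm5c had both proteins, with 591 and 470 bp at Kdm5b and 860 and 740 bp at Kdm5c. All 4 Kdm4 genes, both Kdm1, both Kdm2 and both Kdm3 genes also had both. Away from promoters the family had few peaks, 37 of Smad3 and 14 of JMJD3, most of the former at Kdm2b and Kdm4b. Kdm2b, which recruits a Polycomb complex to CpG islands, has 3 starts in the lists. Its 15 Smad3 peaks away from promoters stood against 4 of JMJD3, and Kdm4b had 11 against 3, while Kdm1a, the demethylase of the CoREST complex, had 4 against 3.

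Among the class I deacetylases, Hdac1 and Hdac2 form the catalytic core of the NuRD, Sin3 and CoREST corepressors and Hdac3 that of NCoR and SMRT. All 4 of the class (Hdac1, Hdac2, Hdac3 and Hdac8) had a Smad3 promoter peak and 3 had JMJD3 as well. Hdac1 had regions of like width, 990 and 950 bp. Its close paralog Hdac2 had a Smad3 region of 1490 bp (chr10:36693841-36695330) around a JMJD3 region of only 480 bp (chr10:36694161-36694640). At Hdac8 a Smad3 region of 560 bp covered the start, and the nearest JMJD3 peak lay 5176 bp downstream, the first of 6 JMJD3 peaks inside the gene.

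Class IIa deacetylases shuttle between nucleus and cytoplasm and bind MEF2 factors. Hdac7 had the widest Smad3 promoter region of all 70 genes, 2080 bp (chr15:97661131-97663210), with 1460 bp of JMJD3. Hdac5 had 861 and 1141 bp, and Hdac9 850 and 611 bp. Hdac4 had a promoter peak of neither protein. Its nearest peaks lay 11034 bp (Smad3) and 11089 bp (JMJD3) downstream, yet 38 Smad3 and 28 JMJD3 peaks named it, a pattern described with the distal peaks. Of the other classes, Hdac6 and Hdac11 had both proteins, and Hdac10 had a single Smad3 peak of 740 bp at its start and no JMJD3 peak.

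The sirtuins are best grouped by where they act. The nuclear Sirt1, Sirt6 and Sirt7 each had both proteins. Their Smad3 regions spanned 551, 750 and 550 bp and those of JMJD3 670, 571 and 670 bp, all below the medians over all family genes. Of the mitochondrial enzymes, Sirt3 had both, with 1140 and 970 bp, in a window that also held peaks naming its neighbour Psmd13. Sirt4 had a Smad3 region of 510 bp over its start. The nearest JMJD3 peak was at -5643 bp, inside a region of 1811 bp that lay within a Smad3 region of 2131 bp (chr5:115939141-115941271).

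Sirt5 had no promoter peak. Its nearest Smad3 peak was at -4967 bp, and no JMJD3 peak named it. Sirt2, a mainly cytoplasmic deacetylase, had 4 Smad3 and 4 JMJD3 peaks inside the gene, the nearest at 2487 and 5407 bp. Peaks of both proteins did cover the Sirt2 start, under the name of Nfkbib, the gene next to it. A peak names its closest start alone, so the count of genes with neither is a count by name, and by position Sirt2 had both.

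Every Smarc gene had promoter peaks of both proteins. The 9 that encode SWI/SNF subunits include both ATPases of the complex. Smarca4, the ATPase BRG1, had regions of 1360 bp (chr9:21420081-21421440) and 1500 bp (chr9:21419781-21421280). Smarca2, the ATPase BRM, has 2 starts in the lists, and peaks of both proteins lay within 1 kb of each: Smad3 peaks at -77 bp from the first and 100 bp from the second, JMJD3 peaks at -147 and -100 bp. The core subunits Smarcb1, with 1080 and 1090 bp, and Smarcc1, with 971 and 1370 bp, had wider regions than Smarcc2, with 441 and 560 bp, and Smarce1, with 770 and 831 bp. The widest regions of the pair at Smarcc2 did not share bases.

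The 3 alternative Smarcd subunits differed in shape. Smarcd1 (760 and 1051 bp) and Smarcd2 (770 and 1070 bp) were alike. Smarcd3 combined a Smad3 region of 741 bp (chr5:24107651-24108391) with a JMJD3 region of 2150 bp (chr5:24107281-24109430), the widest JMJD3 region of the family. The 8 Smad3 and 9 JMJD3 peaks that named Smarcd3 away from its promoter all overlapped the other list and all lay within about 10 kb, the farthest at -10215 bp. JMJD3 was the wider protein at 10 of the 12 Smarc genes. Smarca5, the ISWI ATPase, was 1 of the 2 where Smad3 was wider, at 1431 against 1340 bp, the other being Smarcal1. Smarca5 also had 9 Smad3 and 4 JMJD3 peaks upstream, to -68967 bp. Smarcd1 had 7 Smad3 and 5 JMJD3 peaks outside its promoter.

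Of the 10 chromodomain remodelers 3 had Smad3 only (30.0%, interval 6.67 to 65.2), against 17.9% of all named genes. These were Chd2, with a Smad3 region of 381 bp, Chd3, with 310 bp, and Chd5, with 350 bp, the 3 narrowest Smad3 promoter regions of all 66. With the Smad3 list cut to the length of the JMJD3 list, or in the wider 50% of each list, all 3 lost the Smad3 call. Both cuts keep the widest regions, so the narrowest are lost first and the loss adds nothing to the widths. Their nearest JMJD3 peaks lay at 3331, 1327 and -5517 bp. Chd3, Chd4 and Chd5 are alternative ATPases of NuRD, and Chd4 differed from the other two. It had a Smad3 region of 2011 bp (chr6:125045281-125047291) and a JMJD3 region of 1120 bp (chr6:125045361-125046480). At Chd4, 7 further Smad3 peaks had no JMJD3 peak on them. At Chd3, JMJD3 was present inside the gene, with 5 peaks there against 5 of Smad3.

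Chd6, Chd7, Chd8 and Chd9 form a subfamily that includes Chd7, the gene of CHARGE syndrome, and Chd8, a gene linked to autism. Chd9 had 1291 bp of Smad3 and 1520 bp of JMJD3 at its promoter, Chd6 571 and 531 bp, and Chd7 570 and 820 bp. At Chd6 and Chd7 the widest regions of the pair did not share bases, and at Chd7 no JMJD3 peak covered the start. Chd8 had a promoter peak of neither. Its nearest peaks were at -6894 bp for Smad3 and -7063 bp for JMJD3, and a second pair lay near -20348 bp, all overlapping the other list. Whether these lie at another start of Chd8 was not tested. Chd1 (1070 and 1110 bp) and Chd1l (610 and 1060 bp) had both proteins.

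In the Setd family Smad3 was listed at all 10 promoters and JMJD3 at 9. Setd5, a SET domain protein linked to intellectual disability, had 2060 bp of Smad3 (chr6:113025801-113027860) and 2180 bp of JMJD3 (chr6:113025711-113027890), in a window shared with peaks that name the neighbouring Gt(ROSA)26Sor. Setd1a, an H3K4 methyltransferase, had 1660 and 1320 bp and no peak elsewhere. Setd8, the H4K20 monomethyltransferase now named Kmt5a, had 1011 and 1560 bp. Setd2, which trimethylates H3K36, had 871 and 1120 bp, and Setdb1, an H3K9 methyltransferase, 790 and 610 bp. The regions of Setd4, Setd6 and Setdb2 were between 440 and 861 bp wide.

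Setd3 and Setd7 were the uneven ones. Setd3, an actin histidine methyltransferase, had a Smad3 region of 470 bp inside the gene and a JMJD3 region of 1360 bp at the start, without shared bases. A Smad3 peak did cover the Setd3 start, and peaks in the window also named its neighbour Ccnk. Setd7 had a Smad3 region of 471 bp, and the only JMJD3 peak that named it was at -43140 bp. Peaks of both proteins in the Setd7 window carried the name of 5031434O11Rik, so the JMJD3 call at Setd7 too depends on which start a peak is assigned to. Away from promoters Setd5 had 5 Smad3 and 6 JMJD3 peaks, all within the gene, and Setd3 and Setd8 had 3 Smad3 peaks each, with 1 and 0 of JMJD3.

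Of the acetyltransferases named Kat in the files, Kat5, the catalytic subunit of the TIP60 complex, had 1030 and 1170 bp. Kat2b, which encodes PCAF, had 600 bp of Smad3 and 1090 bp of JMJD3, without shared bases, and 7 and 5 further peaks inside the gene. Its paralog Kat2a, which encodes GCN5, had 1 Smad3 peak of 570 bp (chr11:100573551-100574120) and no JMJD3 peak. The Mll genes are listed under older symbols: Mll1 is now Kmt2a, Mll2 Kmt2d, Mll3 Kmt2c and Mll5 Kmt2e. The first 3 encode large H3K4 methyltransferases. All 4 had wide regions of both proteins, and their medians, 1680 bp for Smad3 and 1425 bp for JMJD3, were the highest of the 8 families. Mll5 had 2020 bp (chr5:22938301-22940320) and 2201 bp (chr5:22938341-22940541), Mll1 1940 and 1210 bp, Mll3 1420 and 1300 bp, and Mll2 1230 and 1550 bp.

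Away from promoters the picture was one of a few genes with many peaks. Of the 582 Smad3 peaks that named a family gene, 162 were promoter peaks (27.8%), against 25.4% of all Smad3 peaks, and 420 were not. Of the 373 JMJD3 peaks 117 were (31.4%), against 25.2%, and 256 were not. The median gene had 2 Smad3 peaks and 1 JMJD3 peak outside its promoter, as over all named genes, and 18 of 70 had none of either, against 22.8%. The 10 genes with the most held 272 of the 420 Smad3 and 166 of the 256 JMJD3 peaks, 64.8% of each. In the Chd family 14.4% of Smad3 peaks and 11.3% of JMJD3 peaks were at promoters, whereas in the Setd family 57.9% and 62.5% were. Joined peaks share a region, so these 420 and 256 peaks lay in 310 and 173 regions.

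**Figure D4:**
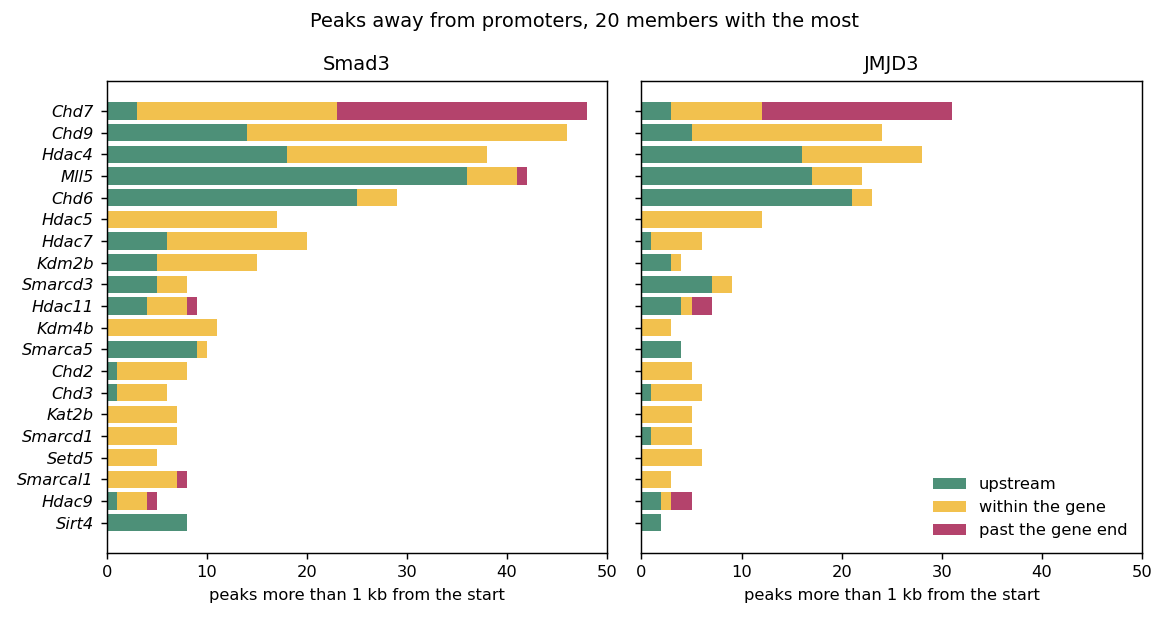
Number of Smad3 (left) and JMJD3 (right) peaks more than 1 kb from the start for the 20 genes with the most, split into peaks upstream of the start, within the gene and past its end. Chd7 and Chd9 have the most peaks of the 2 lists together, Mll5 and Chd6 are mostly upstream, and Hdac5 lies wholly within the gene.

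The leading genes each had their own layout. Chd7 had 48 Smad3 and 31 JMJD3 peaks, of which 20 and 9 lay within the gene and 25 and 19 past its end, as far as 272340 bp and 272450 bp from the start. The widest pair there was 1711 bp of Smad3 (chr4:8837811-8839521) and 1770 bp of JMJD3 (chr4:8837781-8839550). Chd9 had 46 and 24 peaks, with 32 and 19 inside its gene body. Mll5 had 42 and 22, with 36 and 17 upstream, and the widest pair of 2201 and 2550 bp lay about 21 kb upstream (chr5:22918721-22920921 and chr5:22918711-22921260).

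Hdac4, without promoter peaks, had 20 Smad3 and 12 JMJD3 peaks inside the gene and 18 and 16 upstream. Its widest pair, 1831 and 1730 bp, lay upstream at chr1:94111571-94113401 and chr1:94111711-94113440. Chd6 had 29 and 23 peaks, 25 and 21 of them upstream and reaching to -724988 and -724963 bp. A peak that far names Chd6 because no other start was closer, which does not tie it to the gene. Hdac7 had 20 Smad3 but 6 JMJD3 peaks, Hdac5 17 and 12, all within the gene, and Hdac11 9 and 7.

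**Figure D5:**
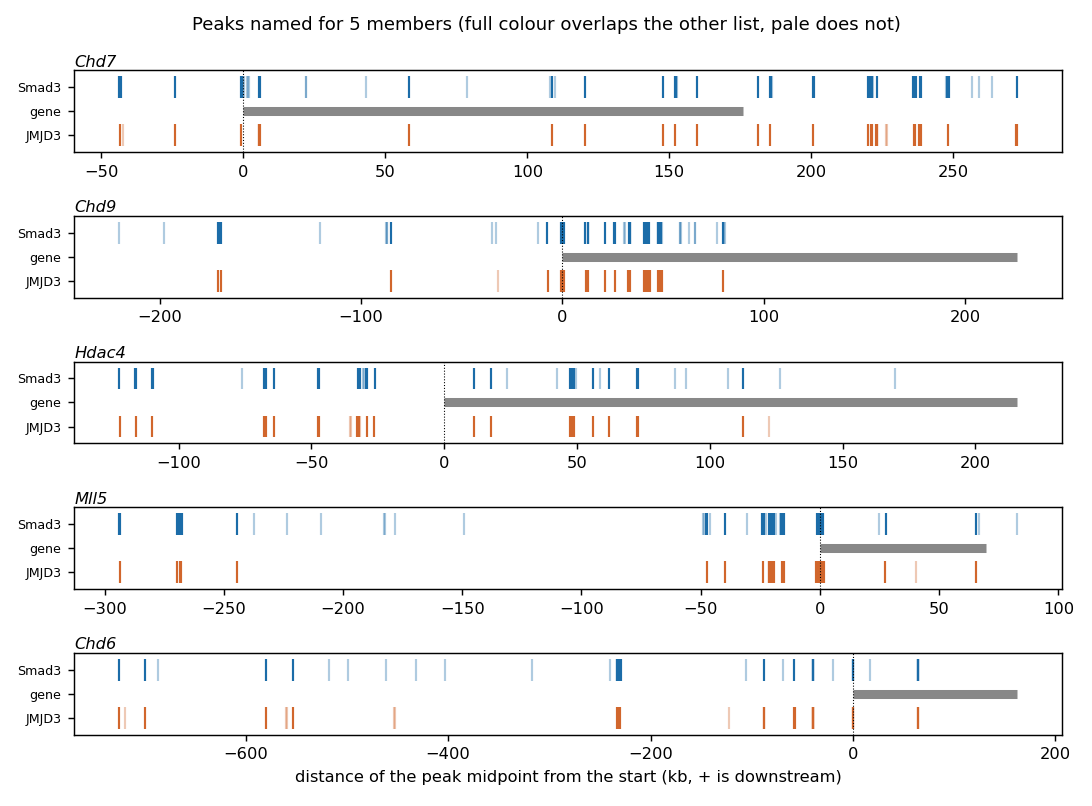
Position of every peak that names Chd7, Chd9, Hdac4, Mll5 or Chd6, as the distance of its midpoint from the start (kb, positive is downstream), with Smad3 above and JMJD3 below the bar that marks the gene. Full colour marks peaks that overlap the other list and pale colour those that do not. Peaks of the 2 proteins often fall in the same clusters. Away from promoters they lie mainly past the gene end and inside the gene for Chd7, and inside the gene and upstream for Hdac4. Most lie inside the gene for Chd9 and upstream for Mll5 and Chd6. Over all genes 56.6% of Smad3 and 77.3% of JMJD3 peaks away from promoters overlap the other list.

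More of these distal peaks lay inside genes than in the lists as a whole. Within the gene lay 214 of the 420 Smad3 peaks (51.0%), against 36.6% of all Smad3 peaks away from promoters, and 124 of the 256 JMJD3 peaks (48.4%), against 35.5%. Past the gene end lay 9.29% and 11.3%, against 23.4% and 23.8%. Upstream lay 39.8% and 40.2%, against 40.0% and 40.7%. Gene length moves with these counts: across the 70 genes the Spearman correlation of length with peaks inside the gene was 0.42 for Smad3 and 0.46 for JMJD3, given as a description of points from the same libraries. Its part in the shares was not tested. No annotation of the files' build was used, so exons and introns are not told apart.

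Most JMJD3 peaks of the family genes lay on Smad3 peaks. Of the JMJD3 peaks that named a family gene, 328 of 373 shared at least 1 bp with a Smad3 peak (87.9%, interval 84.2 to 91.1), against 81.4% of all JMJD3 peaks. The interval treats peaks as independent and may be too narrow. Neighbouring peaks can share a region, and 10 genes held 64.8% of the JMJD3 peaks away from promoters. At promoters it was 111 of 117 (94.9%), against 93.4%, and elsewhere 217 of 256 (84.8%), against 77.3%. In the other direction 362 of 582 Smad3 peaks (62.2%) overlapped JMJD3, against 60.2%, with 75.9% at promoters, against 70.9%, and 56.9% elsewhere, against 56.6%. The Smad3 list is the longer of the 2. Promoter overlap of Smad3 peaks ran from 65.4% in the Chd family to 90.3% in the Smarc family. None of the 7 distal Smad3 peaks of Chd4, which lay in 4 regions, overlapped JMJD3, while at Chd7 32 of 48 did. Other genes with fewer distal Smad3 peaks also had no overlap there, such as Sirt5 and Setd8 with 3 each and Kdm5a with 2.

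Partner subunits that carry other symbols were looked up in 6 lists of textbook complexes. Of their 96 genes 95 were named. Smad3 had promoter peaks at 88 (92.6%), JMJD3 at 78 (82.1%) and both at 76 (80.0%). Shares over all named genes were 73.1%, 57.1% and 55.1%. The partner shares were near those of the 70 family genes. All 17 SWI/SNF partners had Smad3, and 16 had JMJD3, with Dpf2 as the exception. The progenitor subunit Actl6a had 1250 and 1210 bp and its neuronal counterpart Actl6b 460 and 630 bp. Ss18 had 2030 and 1811 bp, against 691 and 1170 bp at its neuronal counterpart Ss18l1. Phf10 and Dpf2, progenitor subunits, had Smad3 regions of 721 and 691 bp, narrower than the 800 and 940 bp at their neuronal counterparts Dpf1 and Dpf3. JMJD3 had 1210 bp at Phf10, against 790 bp at Dpf1 and 870 bp at Dpf3. Dpf3, a subunit of differentiating neurons and muscle, had 49 Smad3 and 32 JMJD3 peaks away from its promoter.

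Over all named genes 55.1% had promoter peaks of both proteins. Among 18 partners of NuRD, Sin3 and CoREST, 15 had both. Sin3a had 1960 and 2910 bp and Mbd3 1990 and 2390 bp, while Mta3 had Smad3 only, Sap18 JMJD3 only and Gatad2b neither. Of 24 acetyltransferases and partners 22 had both, Ep300 with 1820 and 2060 bp and Crebbp with 291 and 540 bp. Tada2b had JMJD3 only and Epc2 Smad3 only. Of 11 COMPASS partners 7 had both, a share near that of all named genes. Rbbp5, Dpy30 and Wdr82 had Smad3 only, with a JMJD3 peak of Wdr82 just outside the limit at 1018 bp. Ncoa6 had neither.

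Of the 14 other lysine methyltransferases 7 had both, a share near the 55.1% of all named genes. Both G9a-type enzymes, Ehmt1 (1360 and 1020 bp) and Ehmt2 (810 and 1111 bp), both Suv39h genes and Dot1l (561 and 1041 bp) were among them. Smyd2, Smyd3, Suv420h1 and Prdm2 had Smad3 only, and Nsd1, Whsc1 and Ash1l neither, with the nearest Nsd1 peaks at 1735 and 1731 bp. Of 11 ISWI and INO80 partners named, 9 had both, against 55.1% of all named genes, and Rsf1 and Actr8 had Smad3 only.

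The calls rest on 1 library per antibody. In the wider 50% of each list 52 genes kept a Smad3 call, 42 a JMJD3 call and 40 both, against 53.3%, 37.5% and 33.6% of named genes. With equal list lengths, where the Smad3 list is cut to its widest regions, 63 genes kept a Smad3 call, against 62.6% of named genes.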

How the data were processed

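The lists the authors deposited, 1 per library, give peak positions, the closest RefSeq start with its gene symbol, and a signed distance, per the file headers. The submitters' processing notes name the build mm9 and the tools CASAVA, Bowtie 0.12.7 and MACS 1.4 without their roles. Thresholds, and how input was used, are not given in the sources. The lists hold no score, so the width (end minus start plus 1) of peaks joined at 10 bp or less stands for strength. Genes, partner lists and rules were chosen with earlier results of these data known, so no test was run: counts stand beside the same count over all named genes. Named genes were, per family, the 2 with the widest promoter region of each protein, all with 1 protein or neither, the 3 with most other peaks, and the 5 nearest to each side of the 1 kb limit. Other named genes were chosen after their values were seen. All 70 genes, and 16331 of all 16428, matched the RefSeq gene table (GRCm38.p6) by Entrez ID. Of 57 family genes with a RefSeq promoter entry, 36 passed the match of span and start. Analysis used Python 3.11.15, pandas 2.3.3 and scipy 1.17.1, and joining and overlap were checked on simulated data. Alternatives covered the promoter window, overlap rule, joining, list length and gene rule.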

Additional observations from a re-analysis of the deposited data

How the results depend on the processing

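No paired analysis was possible because there was 1 library per antibody. Of 54 alternative values, 35 stayed within the counting interval or within 1.5 times the count, and 19 moved. The numbers of genes with a promoter peak were among those that stayed. With 66 of 70 genes for Smad3 and 57 for JMJD3 and for both, the limit of 1.5 times could not be passed upward. These counts could move only by falling. Over the other windows Smad3 had 65 to 68 genes, against 70.3% to 80.6% of named genes. JMJD3 had 56 to 59, against 54.8% to 63.9%. With equal list lengths 63 genes kept Smad3, against 62.6%. Only the Smad3 list was cut there, to its widest regions, so the JMJD3 count and promoter share could not move. In the wider 50% of each list the numbers were 52 and 42, against 53.3% and 37.5%. Windows of 500 bp dropped Setd3 for Smad3 and Chd7 for JMJD3; windows of 2500 bp added Sirt2 and Chd3, and windows of 5000 bp also Sirt5 and Chd2. The promoter share of peaks was 19.9% for Smad3 and 23.9% for JMJD3 at 500 bp, 34.4% and 37.8% at 2500 bp, and 41.1% and 44.0% at 5000 bp. It was 35.4% and 39.1% in the wider 50% of peaks, 35% for Smad3 with equal list lengths, and 23.6% for Smad3 with regions counted in place of peaks, an alternative chosen after seeing the data. The share of JMJD3 peaks overlapping Smad3 was 74.3% with equal list lengths, 57.6% with reciprocal overlap of 50% and 72.4% with midpoints within 200 bp. The share of Smad3 peaks overlapping JMJD3 was 67.1% in the wider 50%, 76.4% with equal lengths, 36.4% with reciprocal overlap and 47.8% by midpoints. Without joining, median widths were 526 bp for Smad3 and 630 bp for JMJD3, since single peaks are narrower than the regions they form. The causes of the other moves were not tested. Depth is unknown, so a missing peak may be one that was not detectable.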
